A study of Mus musculus with 10 samples.

Results

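Syt6, Gpr50, Cited1, Tmem30b, Dgkk, Cyp2s1 and Itm2a are 7 genes outside the patterning transcription factors, of 33641 gene symbols listed and 17477 tested, and all 7 were among the genes tested. They were chosen by their counts in the 3 Hand2 mutant libraries, which all differed from wild type in the same direction, without a numerical cutoff, so their difference between the Hand2 mutants and wild type (WT) is given here as a description and carries no test. Of the 7 genes, 6 were lower and 1, Tmem30b, was higher in the Hand2 mutants. The samples were mandibular prominences (MNPs), the facial swellings from which the lower jaw and tongue arise, taken from CD1 mouse embryos at embryonic day 10.5 and profiled by sequencing of polyadenylated RNA. The genotypes were WT (libraries WT 3 and WT 4), Hand2 f/f with Wnt1-Cre (Hand2 cKO 1, 2 and 3), and Gli2 f/f with Gli3 f/f and Wnt1-Cre (Gli2/3 cKO 3, which has no replicate). A further 4 of the 10 labelled samples were not analysed here. Wnt1-Cre is active in the neural crest lineage, so each floxed gene stays intact in the epithelium, mesoderm, vessels and blood of the dissected tissue. Whether WT embryos carried floxed alleles or Cre, and how many embryos went into a library, is not stated in the labels or methods used here.

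Hand2 is a transcription factor with a basic helix-loop-helix domain that acts in the distal mesenchyme of the arch and binds E-boxes, short motifs with the letters CANNTG, and Gli2 and Gli3 are the zinc-finger factors through which Hedgehog signals reach the genome. The 7 genes encode proteins other than patterning transcription factors, and whether they take part in patterning was not examined. Gpr50 is an orphan G-protein-coupled receptor of the melatonin receptor family, Itm2a a single-pass membrane protein with a BRICHOS domain that is known from developing cartilage and muscle, and Syt6 a synaptotagmin, a family of membrane proteins of vesicle fusion. Cited1 is a transcriptional co-regulator that binds the acetyltransferases CBP and p300 and has no DNA-binding domain of its own. Tmem30b is a partner subunit of the flippases that move phospholipids between membrane leaflets, Dgkk converts the lipid messenger diacylglycerol to phosphatidic acid, and Cyp2s1 is a cytochrome P450 that is induced through the aryl hydrocarbon receptor and can oxidise retinoic acid.

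Start-site windows of 300 bases (250 before and 50 after the start, RefSeq, GRCm38.p6) were found for all 7 genes, and 4 are shown because they carry the most E-boxes (Syt6 and Tmem30b) or belong to the genes whose Gli2/3 cKO level was the smallest share of the WT mean (Cited1 and Gpr50). Each is written 5′ to 3′ on the strand of its gene, with E-boxes in capitals. The windows are Syt6 at chr3:103575032-103575331 on the plus strand, Gpr50 at chrX:71663417-71663716 on the plus strand, Cited1 at chrX:102252132-102252431 on the minus strand and Tmem30b at chr12:73546346-73546645 on the minus strand.
Syt6: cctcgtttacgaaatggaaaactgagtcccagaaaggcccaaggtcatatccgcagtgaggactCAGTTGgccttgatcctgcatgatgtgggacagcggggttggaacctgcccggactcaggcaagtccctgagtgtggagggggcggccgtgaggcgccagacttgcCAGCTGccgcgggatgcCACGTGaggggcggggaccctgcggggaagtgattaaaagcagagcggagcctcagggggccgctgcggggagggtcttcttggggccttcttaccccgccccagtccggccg
Tmem30b: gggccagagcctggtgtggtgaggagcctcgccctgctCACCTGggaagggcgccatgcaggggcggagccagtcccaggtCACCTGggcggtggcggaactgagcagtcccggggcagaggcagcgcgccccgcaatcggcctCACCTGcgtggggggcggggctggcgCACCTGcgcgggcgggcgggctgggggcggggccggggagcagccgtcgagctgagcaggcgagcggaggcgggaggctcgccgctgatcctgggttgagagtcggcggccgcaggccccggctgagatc
Gpr50: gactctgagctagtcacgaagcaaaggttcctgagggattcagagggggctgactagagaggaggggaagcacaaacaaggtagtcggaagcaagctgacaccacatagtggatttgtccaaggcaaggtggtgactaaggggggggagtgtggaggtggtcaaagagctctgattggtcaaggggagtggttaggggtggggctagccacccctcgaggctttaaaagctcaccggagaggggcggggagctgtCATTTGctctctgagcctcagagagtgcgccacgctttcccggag
Cited1: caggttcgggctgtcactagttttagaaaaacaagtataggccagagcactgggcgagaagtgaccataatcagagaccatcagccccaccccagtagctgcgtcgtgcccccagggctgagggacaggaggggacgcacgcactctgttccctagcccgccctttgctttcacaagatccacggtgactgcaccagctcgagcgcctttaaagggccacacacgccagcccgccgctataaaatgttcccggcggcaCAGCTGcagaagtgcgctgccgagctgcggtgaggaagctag

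The motif CANNTG reads the same in form on both strands, so 1 search covers both. RefSeq listed 3 windows each for Syt6 and Cited1, and the one nearest the start of the most abundant transcript was used. In WT 4 another Syt6 transcript, ENSMUST00000117221.8, took the most counts, and it starts farther downstream, at 103576126. E-boxes of the other windows are not given. The Syt6 window held 3 E-boxes, which begin at -186 (CAGTTG), -80 (CAGCTG) and -63 (CACGTG) relative to the start site. The Tmem30b window held 4, all of them CACCTG, which begin at -212, -169, -106 and -80. The single E-box of Gpr50 was CATTTG and that of Cited1 CAGCTG, both just after the start site. Cyp2s1 and Itm2a held 1 each (CACCTG in Cyp2s1 and, as the same site on the other strand, CAGGTG in Itm2a), and Dgkk none. Over the 32851 RefSeq windows of this length, 72.3% held at least 1 E-box (6 of the 7 genes), 17.6% held 3 or more and 6.49% held 4 or more. CACCTG on either strand stood in 20.2% of windows, 4 or more copies of it in 18 windows (0.0548%). This form and number of copies are those of the Tmem30b window itself, so the share describes that window and tests nothing. The letters G and C made up 76.3% of the Tmem30b window, where the median of all windows was 52.7%, and the shares were not matched for this. CATCTG, another E-box form, stood on either strand in 17.2% of windows and in 0 of the 7. A match describes the letters of a window and not binding, and enhancers farther away were not examined.

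The libraries held 21420197 to 53326697 estimated counts each. Values are given as CPM, counts scaled by library size after TMM scaling. Hand2 itself had 175 and 209 CPM in WT, 13.4 to 25.5 CPM in the 3 Hand2 cKO libraries and 144 CPM in Gli2/3 cKO 3, where Gli2 had 58.3 CPM and Gli3 80.2 CPM (105 to 122 CPM and 145 to 176 CPM in WT). At the thresholds given below, edgeR called none of these 3 genes in the mutant that targets it. A lack of edgeR calls therefore does not show a lack of change. DESeq2 called Hand2 in Hand2 cKO, but not Gli2 or Gli3 in Gli2/3 cKO. Hand2 cKO 2 stood apart in that its counts fell with transcript length (slope -0.39 on the log2 scale per doubling of length, 0.0080 to 0.15 in the other 5). The Y-linked gene Ddx3y marked WT 4, Hand2 cKO 2 and Gli2/3 cKO 3 as male (47.8, 20.1 and 57.3 CPM before TMM scaling) and the other 3 as female (at most 0.292 CPM). Its value was thus lowest in Hand2 cKO 2 among the libraries marked male, and whether a library held embryos of both sexes is not stated. Erythroid marker genes summed to 2624 to 10020 CPM, with the highest value in WT 4. In bulk tissue, fewer cells of a type and less RNA per cell cannot be told apart, and this holds for every difference that follows.

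**Figure D1:**
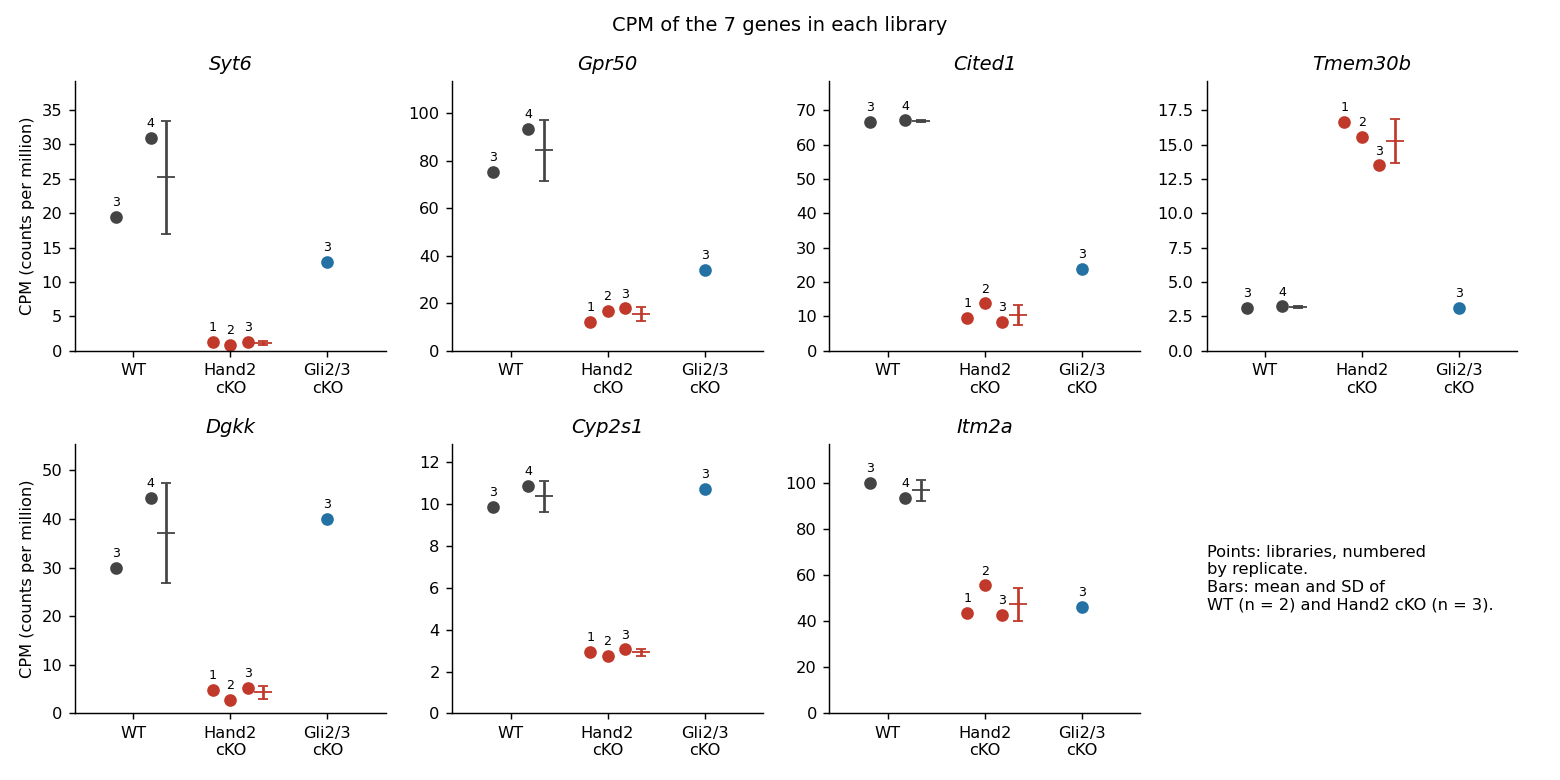
Level of each of the 7 genes (CPM, linear axis from 0) in WT, Hand2 cKO and Gli2/3 cKO, with 1 point per library labelled with its replicate number, and bars showing the group mean with its SD for WT (n = 2) and for Hand2 cKO (n = 3). The WT and Hand2 cKO points of each gene do not overlap, and the Gli2/3 cKO point lies below both WT points for Gpr50, Itm2a, Syt6 and Cited1 and within the WT range for the other 3.

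Among the membrane and vesicle proteins, Syt6 (ENSMUSG00000027849.18, chromosome 3, 103575231 to 103645569, plus strand) came closest to loss. It had 19.4 and 31.0 CPM in WT 3 and WT 4, 1.31, 0.845 and 1.23 CPM in mutants Hand2 cKO 1, 2 and 3, and 12.9 CPM in Gli2/3 cKO 3. Every Hand2 cKO library lay at least 14.9-fold below the lower WT library, and the Gli2/3 cKO library lay between the groups. The mean was 25.2 ± 8.20 CPM in WT (SD, n = 2) and 1.13 ± 0.246 CPM in the Hand2 cKO libraries (SD, n = 3), that is 4.47% of WT and a log2 fold change of -4.47 ± 0.31 (± SE, here and for each log2 fold change below). The estimated counts behind these values were 996 and 701 in WT and 69, 32 and 51 in the Hand2 cKO libraries.

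Gpr50 (ENSMUSG00000056380.13, chromosome X, 71663667 to 71669257, plus strand) had 75.2 and 93.3 CPM in WT, 12.2, 16.8 and 17.8 CPM in mutants Hand2 cKO 1, 2 and 3, and 34.1 CPM in Gli2/3 cKO 3. The groups were well apart, with a 4.23-fold gap between the highest Hand2 cKO and the lower WT library, and Gli2/3 cKO again lay between them. The mean was 84.2 ± 12.8 CPM in WT (SD, n = 2) and 15.6 ± 2.96 CPM in the Hand2 cKO libraries (SD, n = 3), 18.5% of WT (log2 fold change -2.43 ± 0.21). Itm2a (ENSMUSG00000031239.5, chromosome X, 107397099 to 107403376, minus strand) had 100.1 and 93.6 CPM in WT, 43.7, 55.6 and 42.7 CPM in the Hand2 cKO libraries and 46.1 CPM in Gli2/3 cKO 3. It showed the smallest change of the 7 genes, from 96.9 ± 4.59 CPM (SD, n = 2) to 47.3 ± 7.17 CPM (SD, n = 3), or 48.8% of WT (log2 fold change -1.03 ± 0.17), and its Gli2/3 cKO value lay within the range of the Hand2 cKO libraries.

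The nuclear co-regulator Cited1 (ENSMUSG00000051159.16, chromosome X, 102247381 to 102252181, minus strand) had nearly equal WT values, 66.7 and 67.0 CPM. Its values were 9.46, 13.8 and 8.28 CPM in mutants Hand2 cKO 1, 2 and 3 and 23.8 CPM in Gli2/3 cKO 3. All 3 Hand2 cKO libraries were therefore far below WT, by 4.85-fold between the nearest libraries, with Gli2/3 cKO between the groups. The means were 66.8 ± 0.258 CPM (SD, n = 2) and 10.5 ± 2.88 CPM (SD, n = 3), so that Hand2 cKO stood at 15.7% of WT (log2 fold change -2.67 ± 0.24).

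The 3 genes of lipid handling split in direction. Tmem30b (ENSMUSG00000034435.6, chromosome 12, 73543402 to 73546392, minus strand) had 3.12 and 3.23 CPM in WT, 16.6, 15.6 and 13.5 CPM in mutants Hand2 cKO 1, 2 and 3, and 3.14 CPM in Gli2/3 cKO 3. The Hand2 cKO libraries all stood above the others, which were alike, and the mean was 3.17 ± 0.0783 CPM in WT (SD, n = 2) and 15.2 ± 1.61 CPM in the Hand2 cKO libraries (SD, n = 3), a 4.80-fold higher level (log2 fold change 2.26 ± 0.20). Its WT counts were low, 160 and 73 per library.

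Dgkk (ENSMUSG00000062393.13, chromosome X, 6779306 to 6948363, plus strand) had 29.9 and 44.3 CPM in WT, 4.88, 2.77 and 5.30 CPM in mutants Hand2 cKO 1, 2 and 3, and 40.0 CPM in Gli2/3 cKO 3. Here the Gli2/3 cKO library sat among the WT libraries while the Hand2 cKO mean of 4.32 ± 1.35 CPM (SD, n = 3) stood at 11.6% of the WT mean of 37.1 ± 10.2 CPM (SD, n = 2), a log2 fold change of -3.10 ± 0.33. Cyp2s1 (ENSMUSG00000040703.11, chromosome 7, 25802475 to 25816913, minus strand) had 9.86 and 10.9 CPM in WT, 2.95, 2.75 and 3.06 CPM in the Hand2 cKO libraries and 10.7 CPM in Gli2/3 cKO 3. It varied least within the mutant group, where the highest library was 1.11-fold above the lowest, and its means were 10.4 ± 0.721 CPM in WT (SD, n = 2) and 2.92 ± 0.159 CPM in the Hand2 cKO libraries (SD, n = 3), 28.1% of WT (log2 fold change -1.83 ± 0.18).

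These values chose the genes. For scale, 15.7% of all tested genes were lower in every Hand2 cKO library than in both WT libraries and 15.3% were higher in every one, so a lack of overlap alone is common in this design of 2 against 3 libraries. By size, ranked among 10978 genes with a mean of at least 5 CPM, Syt6 had the 13th, Dgkk the 21st, Cited1 the 26th, Gpr50 the 27th, Cyp2s1 the 39th and Itm2a the 120th lowest log2 fold change, and Tmem30b had the 11th highest. The label of a large change therefore fits Itm2a least.

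Scaled by transcript length (TPM), the order of WT levels was Cited1 (146 TPM), Itm2a (114 TPM), Gpr50 (59.1 TPM), Syt6 (13.0 TPM), Dgkk (10.5 TPM), Cyp2s1 (7.65 TPM) and Tmem30b (2.17 TPM). The neighbours Syt6 and Dgkk overlapped between the 2 WT libraries (10.2 and 15.8 TPM against 8.94 and 12.2 TPM), and no other neighbours in that order did. In Hand2 cKO, Itm2a (47.3 TPM) led, followed by Cited1 (19.1 TPM), Gpr50 (9.16 TPM), Tmem30b (9.01 TPM), Cyp2s1 (2.09 TPM), Dgkk (1.13 TPM) and Syt6 (0.510 TPM). Tmem30b thus went from the lowest of the 7 TPM levels to one that overlapped that of Gpr50 across libraries (7.23 to 10.7 TPM against 7.60 to 12.2 TPM).

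The Gli2/3 cKO comparison, which asks whether the same genes also depend on the Hedgehog-responsive Gli factors, did not choose the genes but uses the same WT libraries as the comparison that did, and rests on 1 library whose spread is borrowed from the other groups. Gpr50, Itm2a, Syt6 and Cited1 lay below both WT libraries there, at 40.4%, 47.6%, 51.0% and 35.5% of the WT mean. Of all tested genes, 33.7% lay below both WT libraries there and 36.6% above both. Gpr50, Syt6 and Cited1 lay between the WT and the Hand2 cKO libraries, as did 556 of the 17477 tested genes (3.18%). Only a gene that is lower in every Hand2 cKO library than in WT can lie there. That held for 2740 tested genes, and the 6 lowered genes were chosen for it, so the 3.18% is not a background for them. No gene of the 7 was called by edgeR (0 with a fold over 1.5 and a Benjamini-Hochberg adjusted p under 0.05, where the background was 0.0114% of genes called lower and 0% called higher), 4 lower and 0 higher had an unadjusted p below 0.05 (background 2.96% lower and 1.63% higher), and DESeq2 called 3 lower, namely Gpr50, Cited1 and Itm2a (background 0.44% lower and 0.0803% higher).

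In the Gli2/3 cKO library, Cited1 had a log2 fold change of -1.49 ± 0.34 (95% interval from -2.32 to -0.66, edgeR quasi-likelihood adjusted p = 0.646, from 0.0168 by DESeq2 to 1 over the 13 alternative settings). For Gpr50 it was -1.31 ± 0.30 (interval from -2.03 to -0.58, edgeR adjusted p = 0.646, and 0.0249 by DESeq2 to 1 over the settings). For Itm2a it was -1.07 ± 0.24 (interval from -1.66 to -0.48, edgeR adjusted p = 0.635, and 0.0321 by DESeq2 to 1). The intervals of these 3 genes leave out 0, but the genes passed the threshold only with some settings. For Syt6 the log2 fold change was -0.97 ± 0.40 (interval from -1.93 to -0.0051, edgeR adjusted p = 1, and 0.380 to 1 over the settings), and neither tool called it.

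Tmem30b, Dgkk and Cyp2s1 lay within the range of the 2 WT libraries in Gli2/3 cKO, as did 29.8% of tested genes. Tmem30b stood at 98.9% of the WT mean (log2 fold change -0.015 ± 0.26, interval from -0.64 to 0.61), Dgkk at 107.9% (0.11 ± 0.42, interval from -0.92 to 1.15) and Cyp2s1 at 103.3% (0.048 ± 0.25, interval from -0.55 to 0.65). Their sign is not settled, since over the settings the values ran from -0.040 to 0.034 for Tmem30b, from -0.15 to 0.42 for Dgkk and from -0.021 to 0.12 for Cyp2s1. Smaller changes of these genes in Gli2/3 cKO than the intervals span were not detectable with 1 library. Set side by side, the Gli2/3 cKO level was 11.4-fold the Hand2 cKO mean for Syt6, 9.27-fold for Dgkk, 3.67-fold for Cyp2s1, 2.26-fold for Cited1, 2.19-fold for Gpr50 and 0.975-fold for Itm2a. Itm2a was thus at a like level in both mutants, and Syt6 and Dgkk at very unlike ones.

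**Figure D2:**
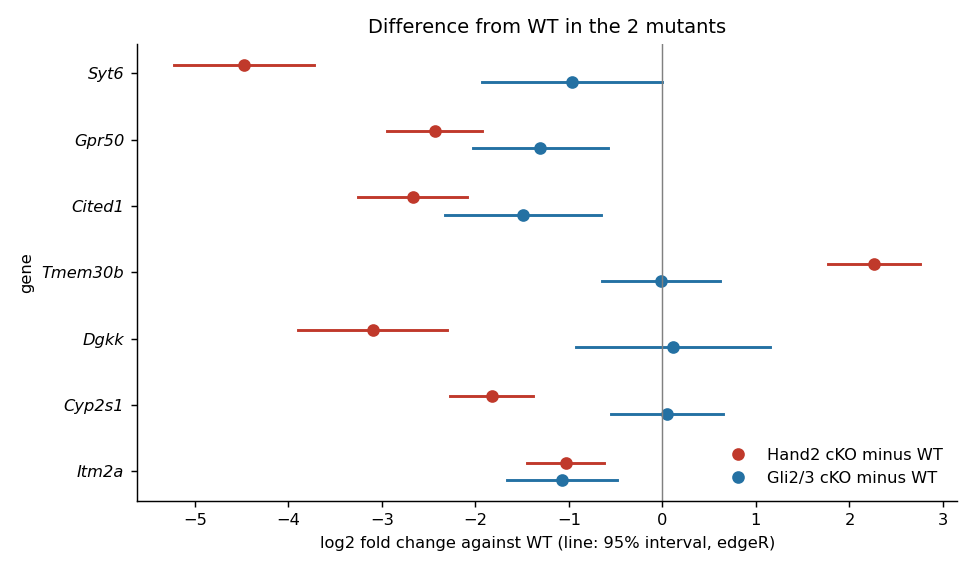
Log2 fold change against WT of each gene in Hand2 cKO (red) and Gli2/3 cKO (blue), with 95% intervals from edgeR. Both mutants share the WT libraries, and the Hand2 cKO values chose the genes. The red intervals are therefore descriptive, and their overlap with the blue ones does not test the mutants against each other. The blue intervals of Tmem30b, Dgkk and Cyp2s1 span 0.

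The transcripts of each gene were examined next. Each tested transcript of the 6 lowered genes had a negative log2 fold change in Hand2 cKO (5 of Syt6, 2 of Gpr50, 4 of Cited1, 2 of Dgkk, 3 of Cyp2s1 and 1 of Itm2a), and the single transcript of Tmem30b had a positive one. Cited1 kept a steady make-up: ENSMUST00000050551.9 (901 bases, 3 exons) took 60.6% to 70.4% of its counts in every library. Gpr50 was carried by 1 transcript, ENSMUST00000070449.5, with 98.0% to 100% of the counts. Cyp2s1 was carried by ENSMUST00000043314.9, with 62.0% to 74.3% of the counts. The main transcript of these 3 genes was thus the same in every library, while the order of the minor transcripts of Cited1 and Cyp2s1 differed between libraries.

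The split between transcripts was less steady for Syt6 and Dgkk. The coding transcript ENSMUST00000090697.10 took 60.4% of Syt6 counts in WT 3 but 22.4% in WT 4, where ENSMUST00000117221.8 took 42.3%. ENSMUST00000132325.9, a Syt6 transcript annotated as a target of nonsense-mediated decay, took 24.8% and 26.5% in WT 3 and WT 4, 59.2% and 80.3% in Hand2 cKO 1 and 3, 0% in Hand2 cKO 2 and 4.62% in Gli2/3 cKO 3. Since only 32 to 69 counts were left in the Hand2 cKO libraries and the transcripts overlap, these shares are uncertain and were not tested. The 2 Dgkk transcripts share most of their length, and the program placed all 105 counts of Hand2 cKO 2 on the shorter ENSMUST00000145302.1 (6827 bases) and all 258 of Hand2 cKO 1 on ENSMUST00000067410.13 (7155 bases), so that gene is best read as a sum.

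**Figure D3:**
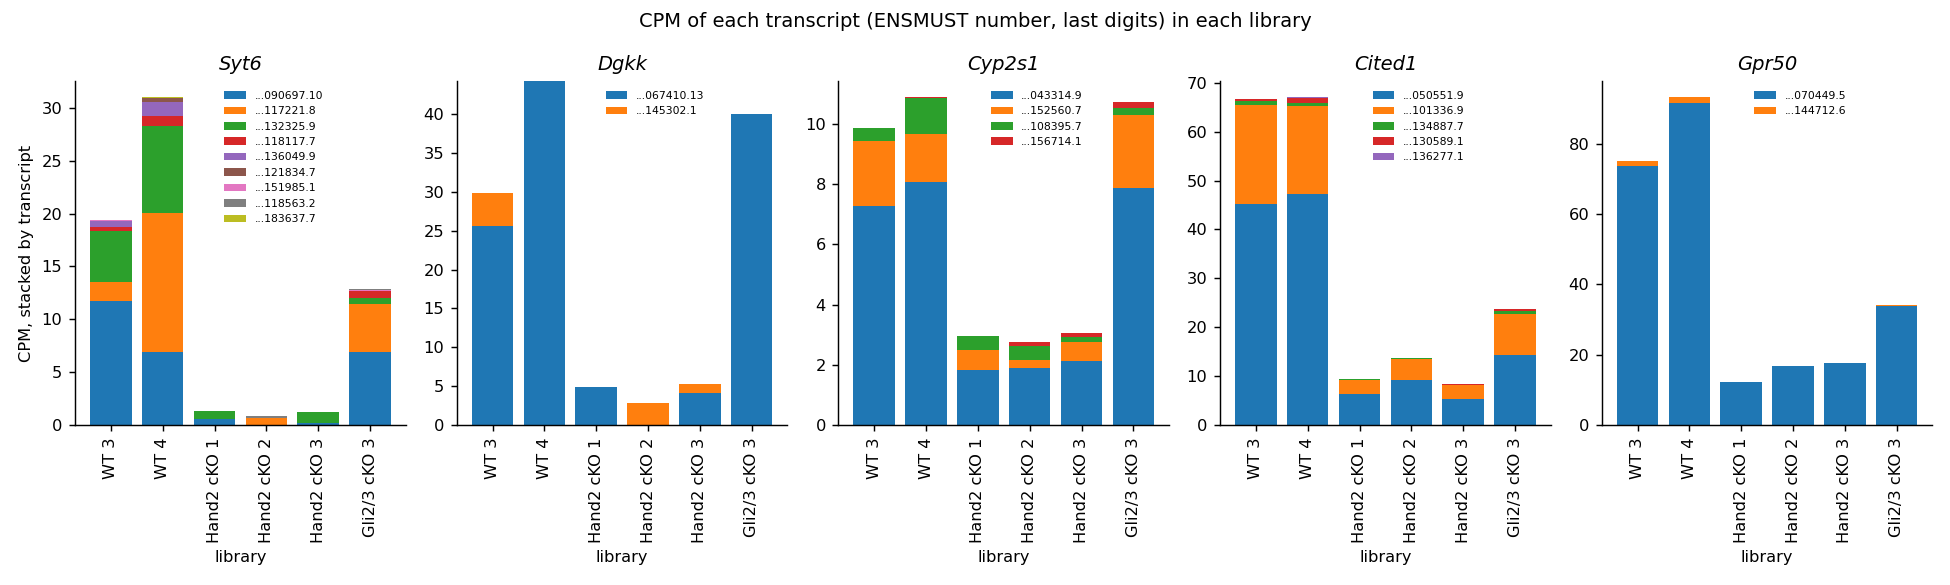
Level of each transcript of Syt6, Dgkk, Cyp2s1, Cited1 and Gpr50 (CPM, stacked, linear axis from 0 with its own scale per gene) in each of the 6 libraries, with the last digits of the ENSMUST number as the key. The main transcripts of Cited1, Gpr50 and Cyp2s1 are low in Hand2 cKO with the gene, and the split of Syt6 and Dgkk differs from library to library.

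Several features of the libraries could be set beside these values. Of the 7 genes, 4 lie on the X chromosome, which holds 3.63% of the tested genes, and the sexes were not balanced. X-linked genes as a whole had a median log2 fold change of -0.018 in Hand2 cKO and other genes 0.0013. Within libraries marked female and male by Ddx3y, the log2 ratio of Hand2 cKO to WT was -2.33 and -2.48 for Gpr50, -2.91 and -2.28 for Cited1 and -1.21 and -0.75 for Itm2a. Dgkk had 5.09 CPM in female and 2.77 CPM in male Hand2 cKO, against 29.9 and 44.3 CPM in WT of the same sex. The ratio was -3.94 and -5.20 for Syt6, -1.71 and -1.99 for Cyp2s1 and 2.27 in both sexes for Tmem30b. Each sex has 1 WT library, and since no WT and Hand2 cKO libraries of these genes overlap, a split by sex could not turn a direction. The part of sex in these values was not tested.

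With the length trend of each library removed, the log2 fold changes in Hand2 cKO were -4.45 for Syt6, -2.47 for Gpr50, -2.98 for Cited1, 2.23 for Tmem30b, -2.97 for Dgkk, -1.88 for Cyp2s1 and -1.21 for Itm2a. Hand2 cKO 2, in which that trend was found, had the highest mutant value of Cited1 and Itm2a, whose transcripts are the shortest of the 7 genes (951 and 1744 bases on average), and the lowest of Dgkk, the longest (7126 bases). Without that library the values were -2.92 for Cited1, -1.18 for Itm2a and -2.87 for Dgkk.

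Markers of the cell types that an MNP can hold were summed in each library. Neural crest mesenchyme, the tissue in which Cre was active, was present throughout and was not lower in the mutants: its 12 markers summed to 1753 and 1996 CPM in WT, 2013 to 2114 CPM in the Hand2 cKO libraries and 2104 CPM in the Gli2/3 cKO library. The 22 epithelial markers summed to 522 and 547 CPM in WT, 491 to 590 CPM in the Hand2 cKO libraries and 481 CPM in the Gli2/3 cKO library. Of these 22 genes, 1 was above both WT libraries in every Hand2 cKO library (15.3% of all tested genes were) and 4 were below (15.7% of all tested genes), and the median log2 fold change was -0.094. Of the 22 log2 fold changes, 14 were negative and 8 positive. The 1 gene above both WT libraries throughout was the epithelial adhesion gene Epcam, with 37.9 and 34.0 CPM in WT. It had 43.5, 59.1 and 38.5 CPM in the Hand2 cKO libraries (log2 fold change 0.39 ± 0.21). The epithelial regulator Grhl2 had -0.32 ± 0.17. Epithelia are known to express Tmem30b, and the part of epithelial cells in its level was not tested.

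Of the other cell types, endothelial markers (10 genes) summed to 287 and 322 CPM in WT and 276 to 282 CPM in the Hand2 cKO libraries, and macrophage markers (8) to 21.2 and 26.9 against 21.6 to 28.0 CPM. Neuronal markers (10) summed to 38.6 and 43.8 CPM in WT and 30.6 to 34.7 CPM in the Hand2 cKO libraries, and neural progenitor markers (8) to 16.7 and 11.8 against 20.2 to 25.1 CPM. Muscle precursor markers (11) summed to 59.7 and 60.0 CPM in WT and 49.8 to 56.7 CPM in the Hand2 cKO libraries. Of their log2 fold changes in Hand2 cKO, 7 were negative and 4 positive, with a median of -0.11. Among them Lbx1, a factor of migrating muscle precursors, was near the floor in WT (0.604 and 0.707 CPM) and at 0 in all 4 mutant libraries. Pharyngeal endoderm markers (8) summed to 29.6 and 23.9 CPM in WT, 33.2 to 36.2 CPM in the Hand2 cKO libraries and 19.3 CPM in the Gli2/3 cKO library. The sums of endothelium, neurons and muscle precursors thus lay below both WT libraries in Hand2 cKO, and those of mesenchyme, neural progenitors and endoderm above. Each of these 6 sums rested on single genes, since the groups overlapped without Prrx1 for mesenchyme, Cdh5 or Kdr for endothelium, Dcx for neurons, Sox2 for neural progenitors, Pax3 or Met for muscle precursors and Pax9 for endoderm, as found by leaving out each gene in turn after the data were seen. Dcx, a microtubule protein of young neurons, had 7.54 and 5.92 CPM in WT and 2.08, 0.607 and 1.85 CPM in the Hand2 cKO libraries (log2 fold change -2.14 ± 0.50, edgeR adjusted p = 0.526, and 0.00542 by DESeq2 to 0.953 over the settings). The part of these cell types in the levels of the 7 genes was not tested.

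Relatives of the 7 genes, by family or pathway, were read from the same fit. Of 86 tested relatives, 0 were called in Hand2 cKO by edgeR, 3 lower and 4 higher had an unadjusted p below 0.05 (background 4.02% lower and 2.44% higher), and DESeq2 called 1 lower and 1 higher (background 0.609% and 0.156%), both genes of retinoid metabolism. The median log2 fold change was -0.13, with 57 of 86 negative. The median of all tested genes was -0.00012, with 50.03% negative. Some relatives were lowest in Hand2 cKO 2, the library whose counts fell with transcript length. Ep300, for example, had 134, 53.5 and 164 CPM in Hand2 cKO 1, 2 and 3. Others were highest there, such as Crabp2 with 251, 410 and 219 CPM. The part of Hand2 cKO 2 in the median of the relatives was not tested.

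Among 13 other synaptotagmins the median was -0.21. Syt17, another vesicle protein of the family, had 3.25 and 3.76 CPM in WT and 0.984, 1.45 and 1.69 CPM in the Hand2 cKO libraries, which do not overlap (log2 fold change -1.35 ± 0.31, edgeR adjusted p = 0.512), and 4.09 CPM in the Gli2/3 cKO library. Syt7 had -0.64 ± 0.26 and Syt9 -0.47 ± 0.28. The closest relatives of Gpr50, the melatonin receptors Mtnr1a and Mtnr1b, did not pass the filter on low counts, with at most 0.0195 CPM in any library. Gpr50 has been linked to the TGF-beta type I receptor, and 20 receptors and Smads of the TGF-beta and BMP pathways had a median of -0.15, with 0 called by either tool and 0 at an unadjusted p below 0.05 by edgeR.

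Of the 7 measured CITED relatives and partners, Cited2 lay above WT in each mutant library, with 32.7 and 25.6 CPM in WT, 40.5, 49.4 and 36.8 CPM in the Hand2 cKO libraries and 42.9 CPM in the Gli2/3 cKO library (log2 fold change in Hand2 cKO 0.53 ± 0.19, edgeR adjusted p = 0.723), the opposite sign to Cited1. The p300 gene Ep300 had -0.49 ± 0.44. The 17 flippases and partner subunits had a median of -0.20, and Tmem30a, the widely expressed paralogue of Tmem30b, had 55.5 and 41.3 CPM in WT and 69.3, 59.6 and 65.9 CPM in the Hand2 cKO libraries (0.42 ± 0.18, edgeR adjusted p = 0.723). Among the 8 other diacylglycerol kinases tested all 8 values were negative, with a median of -0.35 and a lowest of -0.71, and 0 had an unadjusted p below 0.05 by edgeR or a call by DESeq2. Dgkk at -3.10 lay below that range. All of these relatives but Dgkz had their lowest mutant value in Hand2 cKO 2, the library whose counts fell with transcript length. Dgkq, for example, had 32.0 and 35.3 CPM in WT and 28.1, 14.4 and 31.6 CPM in Hand2 cKO 1, 2 and 3. The part of that library in these values was not tested.

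Cyp2s1 stood in 2 lists. The 6 tested genes of the aryl hydrocarbon receptor pathway had a median of -0.097, with 5 negative values and 1 positive, that of the target gene Tiparp (0.54 ± 0.18). Nqo1 had -0.48 ± 0.20 and the receptor Ahr -0.11 ± 0.28, and 0 of the 6 were called by either tool. The 13 tested genes of retinoid metabolism had a median of 0.052, where 1 gene below and 2 genes above WT had an unadjusted p under 0.05. The 2 tested relatives of Itm2a with a BRICHOS domain had 0.043 ± 0.19 (Itm2b) and 0.20 ± 0.20 (Itm2c).

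**Figure D4:**
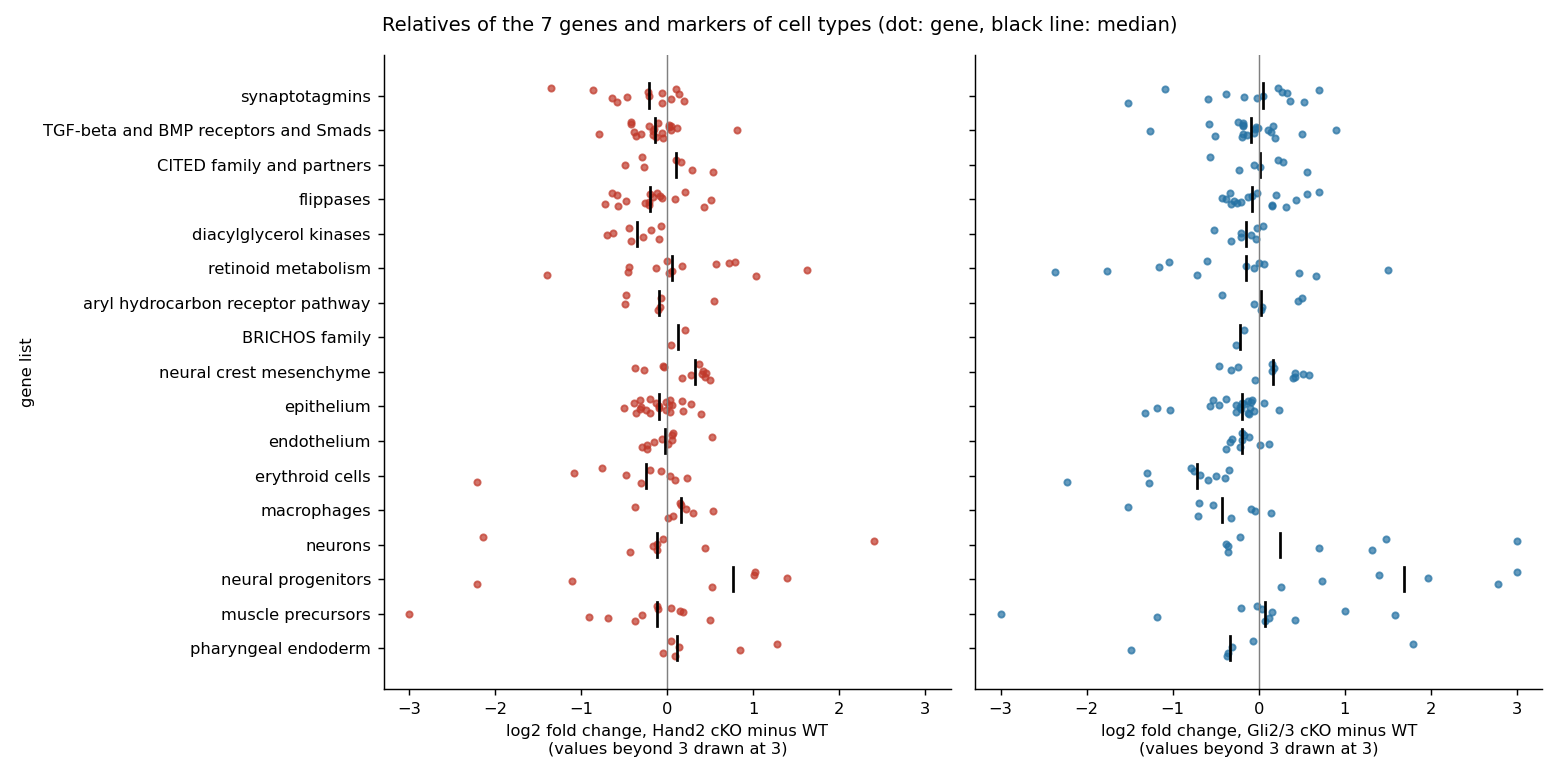
Log2 fold change against WT of tested relatives of the 7 genes (upper 8 lists) and cell type markers (lower 9 lists) in Hand2 cKO (left) and Gli2/3 cKO (right), with 1 dot per gene and the median as a black line. Medians of the relatives in Hand2 cKO lie between -0.35 (diacylglycerol kinases) and 0.12 (BRICHOS family).

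For each of the 7 genes, the 3 genes with the most similar levels over the 6 libraries were sought among 10423 genes, by Pearson r of log2(CPM + 1). With 3 genotypes, such an r mostly follows the differences between genotypes. Syt6 was most like Hand1, the sister factor of Hand2 in the distal arch (r = 0.997), and also like Usp29 (0.992) and the growth factor Igf2 (0.991). Hand1 had 64.0 and 115 CPM in WT, 6.28, 4.07 and 5.22 CPM in the Hand2 cKO libraries and 35.3 CPM in Gli2/3 cKO 3, the same order of the 6 libraries as in Syt6.

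Cited1 was most like Gsc, the homeobox gene goosecoid of the arches (r = 0.986), with Col9a3 and Lbh next (0.984 each), and Gpr50 like Lbh (0.992), Ano8 (0.991) and Mgat5b (0.990). Gsc had 41.6 and 30.4 CPM in WT, 5.35, 5.73 and 3.35 CPM in the Hand2 cKO libraries, and like Cited1 it lay between the groups in Gli2/3 cKO. Dgkk and Cyp2s1 were among the most similar genes of each other (r = 0.991), and Usp29 was on the lists of both (0.989 and 0.983), with Vps9d1 (0.985) on that of Dgkk. Tmem30b was most like Exo1 (0.998), Tnfaip1 (0.982) and Pawr (0.981), and Itm2a like Ephb3 (0.985), Rhbdf1 (0.978) and Pmp22 (0.974). Exo1 differed by only 0.16 on the log2 scale in Hand2 cKO, so a high r here reflects the order and spacing of the libraries and not the size of the change.

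Genes next to the 7 were examined last, by a rule chosen after values were known. Of the 14 nearest tested protein-coding genes, 1 on each side of each gene, 3 with a negative and 1 with a positive log2 fold change in Hand2 cKO had an unadjusted p under 0.05 (4.02% and 2.44% of all tested genes), and 0 were called by edgeR but 3 by DESeq2 (Ccnb3, Olfml3 and Axl, all lower, against 0.609% of all genes called lower). Ccnb3, a B-type cyclin gene 31.3 kb from Dgkk, had 1.42 and 1.68 CPM in WT, 0.151, 0.0264 and 0.0722 CPM in the Hand2 cKO libraries and 2.03 CPM in the Gli2/3 cKO library. It had the pattern of Dgkk, low in Hand2 cKO and not in Gli2/3 cKO, from few counts in Hand2 cKO (log2 fold change -4.09 ± 0.57, edgeR adjusted p = 0.143, and 8.56e-06 by DESeq2 to 0.953 over the settings).

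Olfml3, an extracellular matrix gene 76.7 kb from Syt6, had 38.2 and 37.2 CPM in WT, 16.5, 16.9 and 18.5 CPM in the Hand2 cKO libraries and 11.0 CPM in the Gli2/3 cKO library. The groups do not overlap, and unlike Syt6 it had a more negative value in Gli2/3 cKO (log2 fold change -1.77 ± 0.21, edgeR adjusted p = 0.235, and 3.31e-09 by DESeq2 to 0.604 over the settings) than in Hand2 cKO (-1.12 ± 0.14, edgeR adjusted p = 0.121, and 4.14e-07 to 0.953). Axl, a receptor tyrosine kinase gene 13.8 kb from Cyp2s1, had 80.0 and 82.6 CPM in WT, 46.0, 37.8 and 48.8 CPM in the Hand2 cKO libraries and 53.9 CPM in the Gli2/3 cKO library (-0.88 ± 0.16 in Hand2 cKO, edgeR adjusted p = 0.309, and 0.00226 to 0.953). The genes flanking Gpr50, Cited1 and Itm2a had an unadjusted p above 0.05 in both mutants, and Slc38a6 beside Tmem30b had positive values in both (0.55 ± 0.19 and 0.68 ± 0.25). Within 500 kb, 43 genes of at least 1 CPM had a median log2 fold change of -0.049 in Hand2 cKO, where 5 below and 2 above WT had an unadjusted p under 0.05, against the same 4.02% and 2.44% of all tested genes.

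**Figure D5:**
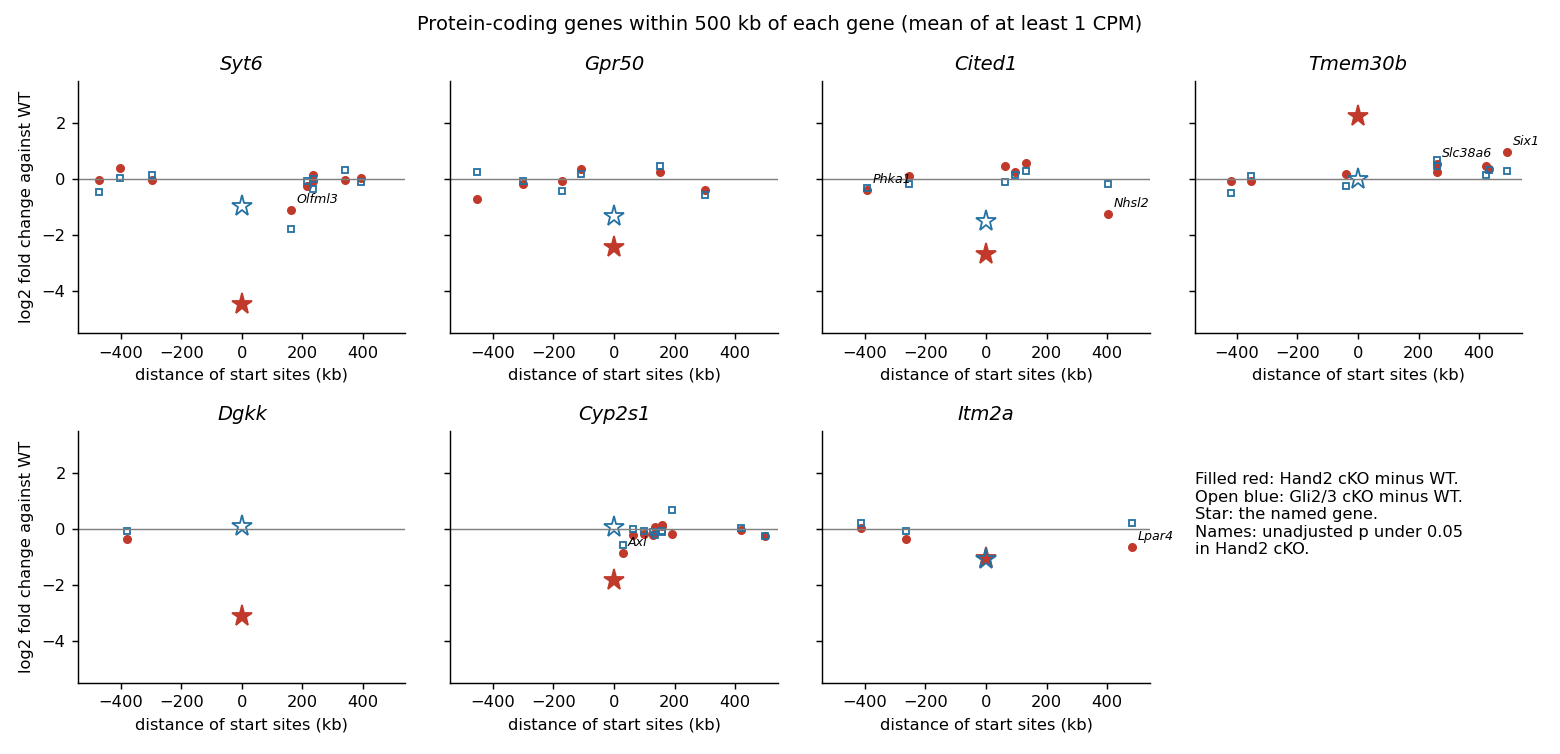
Log2 fold change against WT of protein-coding genes with a mean of at least 1 CPM whose start lies within 500 kb of each of the 7 genes, by distance between start sites in kb (positive in the direction of transcription), in Hand2 cKO (filled red) and Gli2/3 cKO (open blue), with the gene itself as a star. Most neighbours lie near 0 while the red stars lie from -4.47 (Syt6) to 2.26 (Tmem30b). Ccnb3 is below 1 CPM and not drawn.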

How the data were processed

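Polyadenylated RNA of E10.5 MNPs was sequenced, and libraries were grouped by the genotype in their labels. The authors mapped paired-end reads to mm10 and quantified them in Strand NGS, and they deposited expected counts (estimated counts) for each of 105129 transcripts. The labels name the NovaSeq and the methods another sequencer, and the program version is not stated in these sources. The estimated counts were summed per gene symbol and rounded. Genes passing filterByExpr (17477) were fitted with edgeR 4.0.16 in R 4.3.3 (quasi-likelihood test, TMM scaling, genotype as the only term, all 6 libraries, 3 residual degrees of freedom), and DESeq2 1.42.0 was an alternative. Calls required a fold over 1.5 and a p under 0.05 after Benjamini-Hochberg adjustment. Background shares of edgeR are over the 17477 genes tested. Those of DESeq2 are over 23652 genes with a DESeq2 p-value, among them genes of low counts that the edgeR filter left out, so the 2 kinds of share are not directly comparable. The p-values measure the spread between these libraries. Coordinates, lengths and TPM use GENCODE M21 (99593 transcripts matched with their version), and promoter windows use RefSeq.

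The 7 genes and the gene lists were chosen with earlier results of these data known. Named genes were the 7, Hand2, Gli2 and Gli3, up to 3 per list with the smallest p in Hand2 cKO, and the 3 most similar genes at a mean of at least 5 CPM; flanking genes, Ahr, Lbx1, the markers on which a sum rests and the other genes given as examples of a list were added after values were seen. Some genes that this rule picks are not reported here. Alternatives were DESeq2, other scalings, no filter, sex as a covariate (by summed Y-linked CPM of at least 5, and, added after seeing the data, by Ddx3y, since the summed rule placed Hand2 cKO 3, at 5.10 CPM, among males), removal of the length trend, only the groups compared, leaving out each replicate, and the main transcript alone.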

Additional observations from a re-analysis of the deposited data

How the results depend on the processing

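No paired analysis was possible because the WT libraries used share only number 3 with the Hand2 cKO libraries and with the Gli2/3 cKO library. Counts of called genes were unstable. In Hand2 cKO, edgeR called 2 genes, and the count was 181 by DESeq2, 1 with upper-quartile scaling, 45 with no filter, 69 with the length trend removed, 4 with sex by Ddx3y and 1 to 39 without one replicate. In Gli2/3 cKO, edgeR called 2 genes, and the count was 123 by DESeq2, 21 with no filter, 21 with the length trend removed, 57 with only the groups compared, 5 with sex by Ddx3y, 0 with the planned sex covariate and 0 to 14 without one replicate. Of the 7 genes, 0 were called in Gli2/3 cKO by edgeR, 3 by DESeq2 and 1 (Cited1) with the length trend removed or only the groups compared. Of the relatives, 0 were called in Hand2 cKO, 2 by DESeq2 (Cyp26b1 and Aldh1a3) and 1 (Cyp26b1) with the length trend removed. The cause was not tested. Without WT 4 the log2 fold change of Syt6 in Hand2 cKO was -4.10, and with its main transcript alone it was -5.18. Gli2/3 cKO has 1 library, and Syt6 rests on 32 to 69 counts in Hand2 cKO, which limits precision.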

Other observations

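Among the genes of retinoid metabolism, which were examined because Cyp2s1 can oxidise retinoic acid, 5 of 13 tested values in Hand2 cKO were negative and 8 positive, with 0 called by edgeR. Cyp26b1, which degrades retinoic acid, had 22.7 and 20.6 CPM in WT, 10.2, 5.99 and 8.43 CPM in mutants Hand2 cKO 1, 2 and 3 and 13.2 CPM in the Gli2/3 cKO library, so that every mutant library lay below both WT libraries. Its log2 fold change in Hand2 cKO was -1.40 ± 0.25 (edgeR adjusted p = 0.298, 0.000435 by DESeq2 to 0.953 over the settings). Cyp26a1, another such enzyme, had 1.03 ± 0.38 (edgeR adjusted p = 0.723).

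Aldh1a3, which makes retinoic acid, had 0.799 and 0.929 CPM in WT, 2.67, 2.80 and 2.50 CPM in the Hand2 cKO libraries and 2.45 CPM in the Gli2/3 cKO library. All 4 mutant libraries lay above both WT libraries, and the log2 fold change in Hand2 cKO was 1.63 ± 0.27 (edgeR adjusted p = 0.243, 0.00288 by DESeq2 to 0.953 over the settings). Aldh1a2, the main synthesising enzyme of many embryonic tissues, had 13.8 and 6.54 CPM in WT, 10.6, 10.1 and 11.1 CPM in the Hand2 cKO libraries and 3.02 CPM in the Gli2/3 cKO library, so its Hand2 cKO values lay within the WT range.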
